A study of Mus musculus with 14 samples.

Results

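Replication-dependent histone genes encode the bulk of the core histones H2A, H2B, H3 and H4 and the linker histone H1. They were followed here through regions whose accessibility the authors called as different between groups of Ezh2 knockout and wild type progenitors. The members are all lines of the 6 deposited lists in which the gene symbol begins with Hist1h, Hist2h, Hist3h or Hist4. These are 17 of 10679 lines, which pair 15 of 9954 distinct regions, counted in each comparison apart, with 10 histone genes. The reference gene table holds 70 genes with such a name, of which 67 are protein-coding and 3 are pseudogenes.

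The assay was ATAC-seq: the transposase Tn5 cuts accessible DNA and adds adapters to it. Each library came from 500 sorted erythro-myeloid progenitors, an early blood-forming population of the yolk sac with red cell and myeloid progeny, of C57BL/6 embryos at stage E10.5. All embryos carried Ezh2fl/fl, and Ezh2 is the enzyme of Polycomb repressive complex PRC2 that methylates histone H3 at lysine 27. The knockouts were 5 Tie2 KO samples (Tie2-CreTg/+), whose Cre is driven by an endothelial promoter that is also active in cells descended from endothelium, and 3 Vav KO samples (Vav-CreTg/+), whose Cre is active in blood cells. The 3 Tie2 WT samples were labelled Tie2-Cre+/+ and wild type. A further 3 Vav WT samples, labelled Vav-Cre+/+ and wild type, are named in no list. The lists give Tie2 KO against Tie2 WT, Vav KO against Tie2 WT and Tie2 KO against Vav KO, so each pair of comparisons shares a group of samples, and genotype cannot be told apart from Cre line where Vav KO is set against Tie2 WT.

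The lists hold only called regions that cover a gene start or end within 5 kb upstream of one. They hold no value per sample, so depth is unknown, the spread between replicates cannot be computed and no test between groups can be run on these genes. The authors' adjusted p is the only statistic given beside the log2 fold change of each region. The test behind it is not stated, so the spread between replicates cannot be read from it. No list names Ezh2, and the levels of progenitor markers cannot be checked from called regions alone. Of 7 markers of erythro-myeloid progenitors, only Gata2 lay near a called region, where 26.8% of all protein-coding genes did. In the authors' deposited table, Tek, the gene of the Tie2 receptor, had a log2 fold change of 2.90 in Tie2 KO against Tie2 WT and Vav1 had 0.81 in Vav KO against Tie2 WT. These are the genes after which the Cre transgenes of the 2 knockouts are named. The part of the transgenes in these values was not tested. Markers of other yolk sac cells moved as well: Krt19, Pdgfra and Twist2, genes of epithelium and mesoderm, lay near regions that the authors' deposited table gives as 1.21, 1.17 and 2.15 (log2) in Tie2 KO against Tie2 WT. All 3 also lay near higher regions of Tie2 KO against Vav KO. Of the lists of other cells, 2 of 4 endothelial (Tek and Cdh5), 1 of 4 endoderm and 2 of 3 mesoderm markers lay near a higher region of Tie2 KO against Tie2 WT. The counts were 0 of 5 for erythroid, 0 of 3 for macrophage, 0 of 3 for megakaryocyte and 0 of 2 for mast cell markers. Of all protein-coding genes, 11.5% lay near such a region, so lists this short can hold 0 without a difference. Some lay near lower regions: the endothelial gene Pecam1 and the mast cell gene Cpa3 had -0.77 and -1.07 in Tie2 KO against Tie2 WT, and Pdgfra had -1.57 in Vav KO against Tie2 WT, in the authors' deposited table. Markers also lay near regions of the comparisons with Vav KO. In Vav KO against Tie2 WT, the macrophage gene Csf1r had 0.92, the erythroid gene Epor 1.70, Twist2 1.33 and Gata2 -1.55. In Tie2 KO against Vav KO, Csf1r had -1.33, Epor -0.58, and Cpa3 -1.62 and -0.89. Higher in that comparison were Gata2 at 0.92, the macrophage gene Cx3cr1 at 1.02 and the endothelial gene Kdr at 1.18. These values are from the authors' deposited table. The part of these markers in the results on histone genes was not tested.

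Replication-dependent histone genes are switched on together in S phase, when new DNA must be wrapped into nucleosomes. Most have no introns, and their messages typically end in a stem-loop bound by Slbp in place of a poly(A) tail. The activator Npat gathers at the clusters in histone locus bodies. Many H2A and H2B genes lie head to head and share the promoter between them. Histone H3, the substrate of PRC2, is made from the same clusters.

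The promoters below are the 2 of the named histone genes that a called region reached, those of H2afj and Gm12260, neighbours that a region also reached, and 2 that none reached for comparison. They run 5′ to 3′ on the gene's strand from 250 bases before to 50 after the start, from RefSeq, GRCm38.p6, and capitals mark any of 6 motifs on either strand. These are TATAAA (the TATA box), CCAAT (the box bound by NF-Y) and TTTGCAT (a part of the octamer bound by Oct1). The others are GATTTC (chosen as the core of a site of H4 promoters) and the E2F-like letters TTCGCGC (first form) and TTGGCGC (second form). No matches overlap in the printed promoters. Hist3h2ba, an H2B gene, lies at chr11:58948661-58948960 on the plus strand, all of it inside a region that was higher in Tie2 KO against Tie2 WT.
Hist3h2ba: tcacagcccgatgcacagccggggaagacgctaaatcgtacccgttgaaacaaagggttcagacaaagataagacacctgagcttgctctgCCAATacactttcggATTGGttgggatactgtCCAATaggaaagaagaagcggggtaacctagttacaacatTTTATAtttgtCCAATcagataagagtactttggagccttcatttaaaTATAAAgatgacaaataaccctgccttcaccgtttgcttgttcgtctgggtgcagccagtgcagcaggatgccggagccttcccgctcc
Hist1h1e, a linker H1 gene, lies at chr13:23622509-23622808 on the minus strand, with 107 bases inside a region higher in Tie2 KO than in Vav KO.
Hist1h1e: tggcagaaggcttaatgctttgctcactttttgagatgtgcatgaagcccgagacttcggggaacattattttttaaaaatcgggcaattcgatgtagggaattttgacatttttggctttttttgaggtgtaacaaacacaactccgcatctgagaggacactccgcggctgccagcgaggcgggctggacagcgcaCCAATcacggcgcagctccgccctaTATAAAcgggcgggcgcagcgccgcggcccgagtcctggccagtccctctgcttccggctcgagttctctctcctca
H2afj, a replication-independent H2A gene beside Hist4h4, lies at chr6:136807998-136808297 on the plus strand, with 103 bases inside the regions that the lists also pair with Hist4h4.
H2afj: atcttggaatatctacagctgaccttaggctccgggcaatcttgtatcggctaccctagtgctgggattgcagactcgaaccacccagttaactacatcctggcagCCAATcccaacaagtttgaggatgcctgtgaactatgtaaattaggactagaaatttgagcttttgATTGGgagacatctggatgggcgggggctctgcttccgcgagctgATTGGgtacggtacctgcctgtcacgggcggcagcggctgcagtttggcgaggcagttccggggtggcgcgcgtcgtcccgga
Gm12260, an H3 gene beside the Hist3 genes, lies at chr11:58961461-58961760 on the plus strand, inside regions higher in each knockout set against Tie2 WT.
Gm12260: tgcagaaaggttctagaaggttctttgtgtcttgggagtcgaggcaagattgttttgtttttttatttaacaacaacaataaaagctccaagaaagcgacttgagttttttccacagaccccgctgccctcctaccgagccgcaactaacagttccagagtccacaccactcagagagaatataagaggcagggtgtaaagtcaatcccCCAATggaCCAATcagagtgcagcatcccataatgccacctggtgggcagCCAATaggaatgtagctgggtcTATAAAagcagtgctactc
Hist4h4, an H4 gene, lies at chr6:136804382-136804681 on the minus strand and was reached by no called region.
Hist4h4: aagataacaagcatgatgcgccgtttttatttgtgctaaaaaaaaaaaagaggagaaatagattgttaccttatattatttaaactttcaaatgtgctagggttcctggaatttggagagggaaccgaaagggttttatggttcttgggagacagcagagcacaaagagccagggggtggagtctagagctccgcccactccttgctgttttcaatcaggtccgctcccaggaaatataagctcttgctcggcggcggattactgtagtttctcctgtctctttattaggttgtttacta
Hist1h2ai, an H2A gene, lies at chr13:21716162-21716461 on the plus strand. Its start and that of the H2B gene Hist1h2bl on the minus strand are 229 bp apart, and no called region reached the stretch between them.
Hist1h2ai: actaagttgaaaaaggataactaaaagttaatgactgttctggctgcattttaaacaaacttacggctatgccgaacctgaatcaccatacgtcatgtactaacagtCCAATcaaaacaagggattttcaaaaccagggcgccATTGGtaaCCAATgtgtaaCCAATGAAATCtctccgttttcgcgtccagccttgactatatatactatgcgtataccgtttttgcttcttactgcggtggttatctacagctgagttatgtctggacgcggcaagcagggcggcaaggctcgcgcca

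Across the comparisons, 10 of 67 protein-coding histone genes (14.9%) lay near a called region of either direction, against 5866 of 21900 protein-coding genes (26.8%). In Tie2 KO against Tie2 WT, 2 histone genes (2.99%, exact 95% binomial interval 0.364% to 10.4%) lay near a higher region, where 11.5% of all protein-coding genes did. A lower region lay near 2 histone genes (2.99%), against 2.51% of all. In Vav KO against Tie2 WT, 1 histone gene (1.49%, interval 0.0378% to 8.04%) lay near higher regions and 1 near a lower one, against 5.29% and 2.59% of all protein-coding genes. In Tie2 KO against Vav KO, 4 histone genes (5.97%, interval 1.65% to 14.6%) lay near higher and 6 (8.96%, interval 3.36% to 18.5%) near lower regions, against 11.1% and 6.35% of all. The intervals treat genes as independent, which they are not, since neighbours share regions: both genes near a higher region in Tie2 KO against Tie2 WT share a single region. No test was made of these shares. In these bulk samples, fewer cells with an open region and a less open region per cell cannot be told apart.

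**Figure D1:**
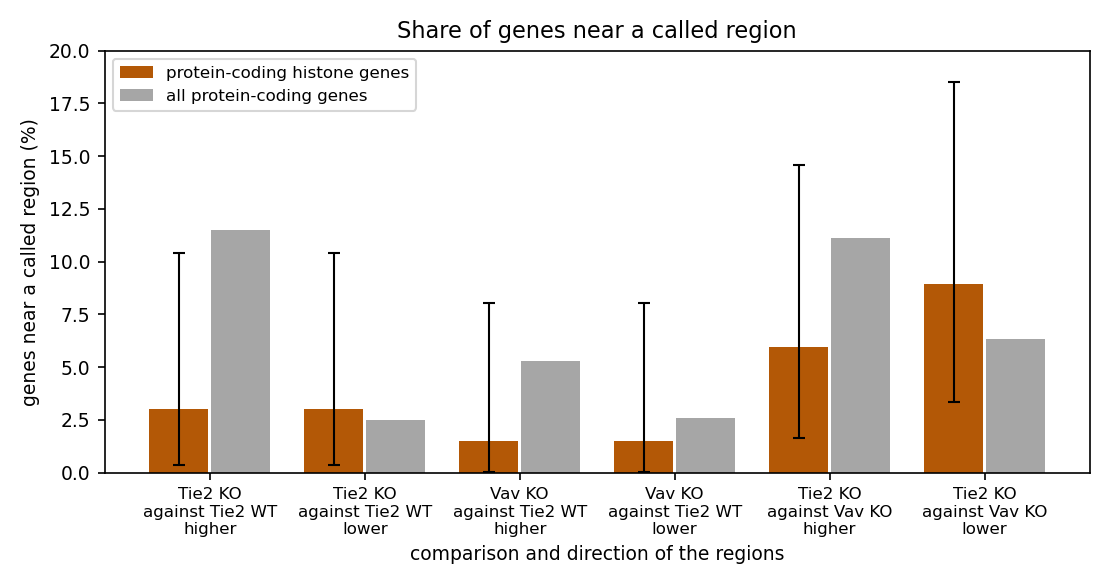
Share of genes near a called region (y axis, percent) for each comparison and direction (x axis). Bars on the left are the 67 protein-coding histone genes with exact 95% binomial intervals, bars on the right all 21900 protein-coding genes; the histone share is 2.99% against 11.5% for higher regions of Tie2 KO against Tie2 WT and 8.96% against 6.35% for lower regions of Tie2 KO against Vav KO.

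The histone clusters were counted against the 26.8% of all protein-coding genes near a called region. In the Hist1 cluster on chromosome 13, 7 of 54 protein-coding histone genes did, with 9 regions of log2 fold changes from -2.73 to 3.03 in the authors' deposited table. In the Hist2 cluster on chromosome 3, 0 of 10 genes did, for which the exact 95% binomial interval reaches 30.8% and so holds the share over all genes. Both protein-coding genes of the small Hist3 cluster on chromosome 11 lay near called regions, 4 in all, and so did Hist4h4, the only Hist4 gene, on chromosome 6, with 2 regions.

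By histone type, 4 of 18 H2A genes, 4 of 18 H2B genes (22.2% each), 1 of 6 H1 genes and 1 of 13 H4 genes lay near a called region. The share over all protein-coding genes was 26.8%. Of 12 H3 genes, 0 lay near one, with an exact interval that reaches 26.5%, just below that share. The interval treats genes as independent, which they are not. The lists pair a region only with genes whose start it covers or lies upstream of, and a called region did overlap the body of an H3 gene, as described for Hist1h3h below. The differences between clusters and between types were not tested.

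Regions paired with histone genes mostly lay away from the gene starts. Of the 15 regions, 1 covered the start of a histone gene (6.67%, exact 95% binomial interval 0.169% to 31.9%). Of all 9954 regions, 3527 (35.4%) covered a gene start. This share pools lists that differ. It was 55.6% for higher regions of Tie2 KO against Tie2 WT and 43.8% for higher regions of Tie2 KO against Vav KO. These lists held 1 and 4 of the histone regions. In each of the remaining lists the share was 18.4% or lower. The part of the mix of lists in the difference was not tested. The median distance from region to gene start was 2670 bp over the 17 histone lines and 618 bp over all lines. The distance was over 1000 bp in 14 of the 17 histone lines. The regions were narrow: 9 of 15 (60.0%) had the smallest width in the lists, 999 bp, against 32.5% of all regions. The part of width in the distance to the start was not tested. In Tie2 KO against Tie2 WT, 1 histone gene had a higher region over its start and 0 a lower one, against 7.1% and 0.384% of all protein-coding genes. The other lists had 0 such histone genes, against 0.881% of all for higher and 0.411% for lower regions of Vav KO against Tie2 WT. For Tie2 KO against Vav KO the shares of all genes were 5.42% higher and 0.667% lower.

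Stricter limits on the regions left the histone counts small. With an absolute log2 fold change of 1 or more, 2 histone genes lay near higher and 0 near lower regions of Tie2 KO against Tie2 WT, where 6.21% and 0.808% of all protein-coding genes did. The counts were 1 higher and 1 lower for Vav KO against Tie2 WT, against 3.79% and 1.89% of all, and 3 higher and 2 lower for Tie2 KO against Vav KO, against 7.23% and 3.78%. With an adjusted p of 0.01 or lower no histone count changed. The shares of all genes were then 11.5% and 2.48% for higher and lower regions of Tie2 KO against Tie2 WT, 5.16% and 2.54% for Vav KO against Tie2 WT, and 10.9% and 6.23% for Tie2 KO against Vav KO.

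**Figure D2:**
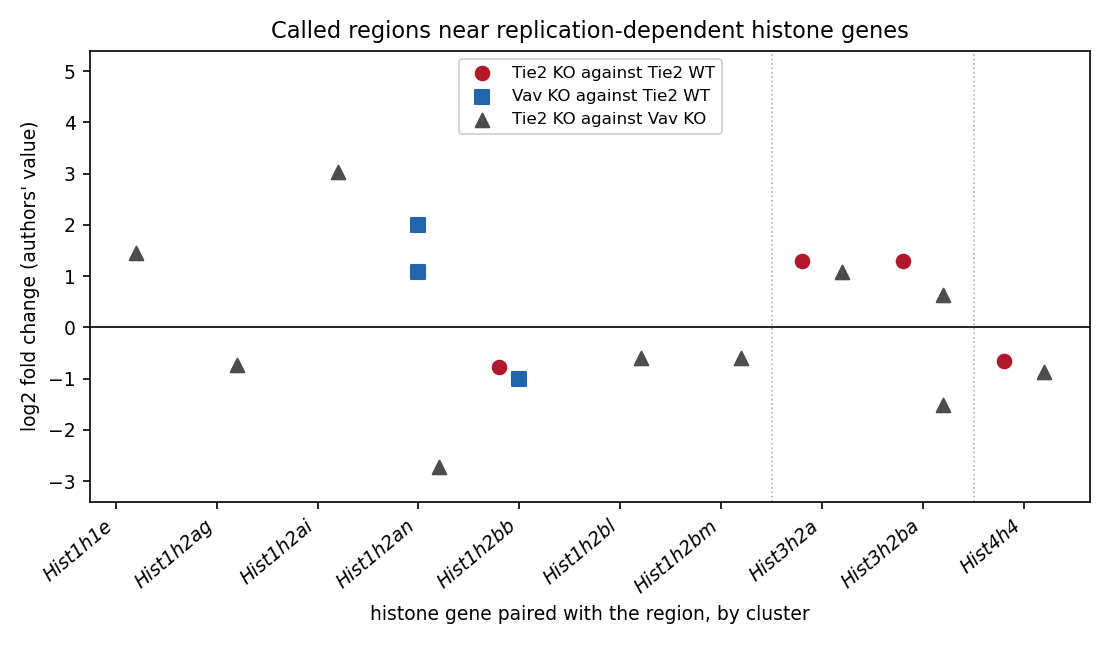
Log2 fold change in the authors' deposited table (y axis) for every region paired with a histone gene (x axis), with 1 point for each region and gene pair and dotted lines between the Hist1, Hist3 and Hist4 clusters. Circles are Tie2 KO against Tie2 WT, squares Vav KO against Tie2 WT and triangles Tie2 KO against Vav KO; values run from -2.73 upstream of Hist1h2an to 3.03 upstream of Hist1h2ai.

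Among the genes of the Hist1 to Hist4 names, the Hist3 locus held the only called region over a start. In Tie2 KO against Tie2 WT, the region chr11:58947602-58950300 contained all of Hist3h2ba and was higher: the authors' deposited table gives it a log2 fold change of 1.29 (adjusted p 2.26e-07). It was 2699 bp wide, against a median of 1599 bp for the 2959 regions of that list, and its fold change ranked in the top 24.5% of them. The same region lay 4384 bp upstream of Hist3h2a, an H2A gene, and was paired with it and with Trim17, a ubiquitin ligase gene that starts at the same place in the lists. A noncoding RNA gene of the reference table, Gm51864, spans the whole region.

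The same stretch was split in Tie2 KO set against Vav KO. In the authors' deposited table, the region chr11:58947802-58948800, ending 110 bp before the Hist3h2ba start, had a log2 fold change of 0.63 (adjusted p 7.78e-05). The region chr11:58949102-58950600, which covers 271 bp of the end of the gene and was paired with Hist3h2a and Trim17, had 1.09 (adjusted p 6.47e-05) in the authors' deposited table. Farther out, the region chr11:58946102-58947100, which ends 1810 bp before the Hist3h2ba start, went the other way, with -1.52 (adjusted p 0.000137) in the authors' deposited table. Hist3h2ba was thus near higher and lower regions in the same comparison, with the higher ones at the gene and the lower one upstream. Both these comparisons use the Tie2 KO samples.

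Vav KO against Tie2 WT listed no region at Hist3h2ba or Hist3h2a. It did list a region over the start of Gm12260, which the reference table names H3f4, a histone H3 gene outside the naming rule that follows Hist3h2a along the chromosome. In the authors' deposited table that start had a log2 fold change of 1.06 in Tie2 KO against Tie2 WT (adjusted p 0.000121). The value in the authors' deposited table was 1.10 in Vav KO against Tie2 WT (adjusted p 0.00014). These comparisons share the Tie2 WT samples.

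**Figure D3:**
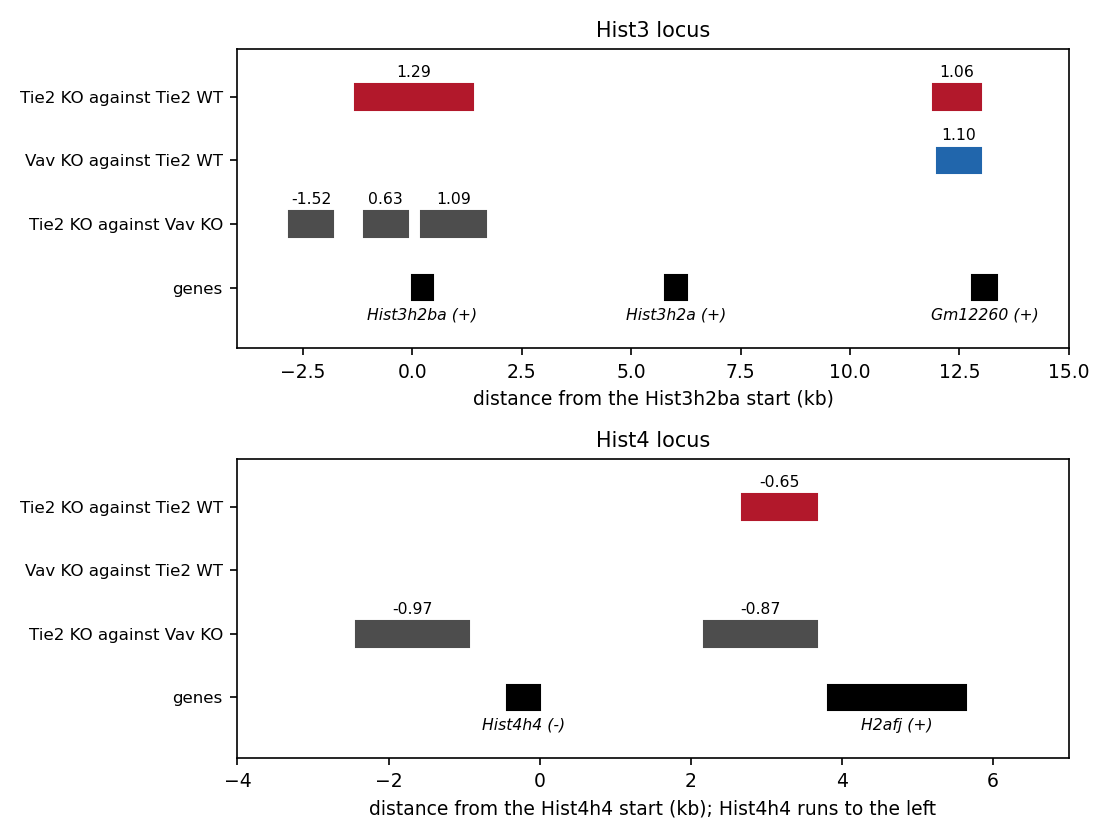
Called regions (bars with their log2 fold change from the authors' deposited table) and genes (black boxes, strand in brackets) by distance in kb from the start of Hist3h2ba (top) and of Hist4h4 (bottom), with the comparisons stacked; Trim17 and Gm51864 are not drawn. The 1.29 bar covers the Hist3h2ba gene, while the -0.65 and -0.87 bars end beside H2afj and leave Hist4h4 uncovered.

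Hist4h4 was paired with lower regions that lie nearer to another gene. For Tie2 KO against Tie2 WT, the region chr6:136807102-136808100 had a log2 fold change of -0.65 (adjusted p 2.06e-05) in the authors' deposited table. For Tie2 KO set against Vav KO, the region chr6:136806602-136808100 had -0.87 (adjusted p 4.90e-05) in the authors' deposited table. Both ended 147 bp before the start of H2afj, which runs away from Hist4h4, and began 2670 and 2170 bp from the Hist4h4 start. A further region, chr6:136802002-136803500 beyond the other end of Hist4h4, was lower in Tie2 KO than in Vav KO at -0.97 in the authors' deposited table and was paired with H2afj at 4747 bp. Both comparisons share the Tie2 KO samples.

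In the Hist1 cluster, which spans 2219 kb and holds 50 other protein-coding genes and 77 tRNA genes, the histone genes lie in dense groups with a long gap between them. The most extreme histone values of the study lay at the low end of its coordinates. The region chr13:21711702-21712700, 3711 bp upstream of the H2A gene Hist1h2ai, had a log2 fold change of 3.03 (adjusted p 3.43e-05) in Tie2 KO against Vav KO in the authors' deposited table, in the top 1.01% of 2873 higher regions. It lies just outside the cluster, beyond Hist1h2bl, the H2B gene that shares a promoter with Hist1h2ai, and nearer to the start of Hist1h2bl (3483 bp) than to that of Hist1h2ai. On the far side of this pair of genes the direction was opposite. In the same comparison, the region chr13:21717702-21718900 had -0.59 (adjusted p 0.000691) in the authors' deposited table and was paired with Hist1h2bl and Hist1h2bm, both H2B genes. Its fold change ranked 1520 of 1560 lower regions, close to 0.58, the smallest absolute value in the lists. That region overlaps 414 bp of Hist1h3h, an H3 gene that starts 74 bp before the region, though the lists do not pair it with that gene.

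Upstream of the H2A gene Hist1h2an, regions were higher in Vav KO. In Vav KO against Tie2 WT, the region chr13:21788502-21789500 had a log2 fold change of 1.09 (adjusted p 0.000101) in the authors' deposited table. The region chr13:21792002-21793200 had 2.00 (adjusted p 0.00324) in the authors' deposited table. For Tie2 KO against Vav KO, the region chr13:21792202-21793200, which lies inside the second of these, had -2.73 (adjusted p 7.77e-06) in the authors' deposited table, in the top 0.833% of 1560 lower regions. Its distance of 4983 bp to Hist1h2an is close to the 5 kb limit of the lists. These regions lie within Hist1h2bp, the divergent H2B partner of Hist1h2an, as the reference table draws that gene. The Vav KO samples enter both comparisons.

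The remaining Hist1 regions were single or shared by comparisons with Tie2 WT. Hist1h2ag, an H2A gene, lay 2552 bp from the region chr13:22045502-22046500, which had a log2 fold change of -0.74 (adjusted p 0.000174) in Tie2 KO against Vav KO in the authors' deposited table. That region is nearer to the start of its partner Hist1h2bj, at 2304 bp. The linker gene Hist1h1e was the only H1 gene near a called region: chr13:23622702-23623700 ended 143 bp before its start and had 1.46 (adjusted p 0.00102) in Tie2 KO against Vav KO in the authors' deposited table.

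Hist1h2bb, an H2B gene, was the only histone gene near a lower region in both knockouts against Tie2 WT. In the authors' deposited table its region chr13:23741602-23743300 had -0.77 (adjusted p 0.000962) in Tie2 KO. In the authors' deposited table its region chr13:23741402-23742400 had -1.01 (adjusted p 0.00126) in Vav KO. These regions lie 3433 and 4333 bp upstream of Hist1h2bb and are nearer to the starts of Hist1h3c and Hist1h1c, an H3 and an H1 gene, whose ends face them. The comparisons share the Tie2 WT samples, and the lists of Tie2 KO against Vav KO hold no region paired with this gene.

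**Figure D4:**
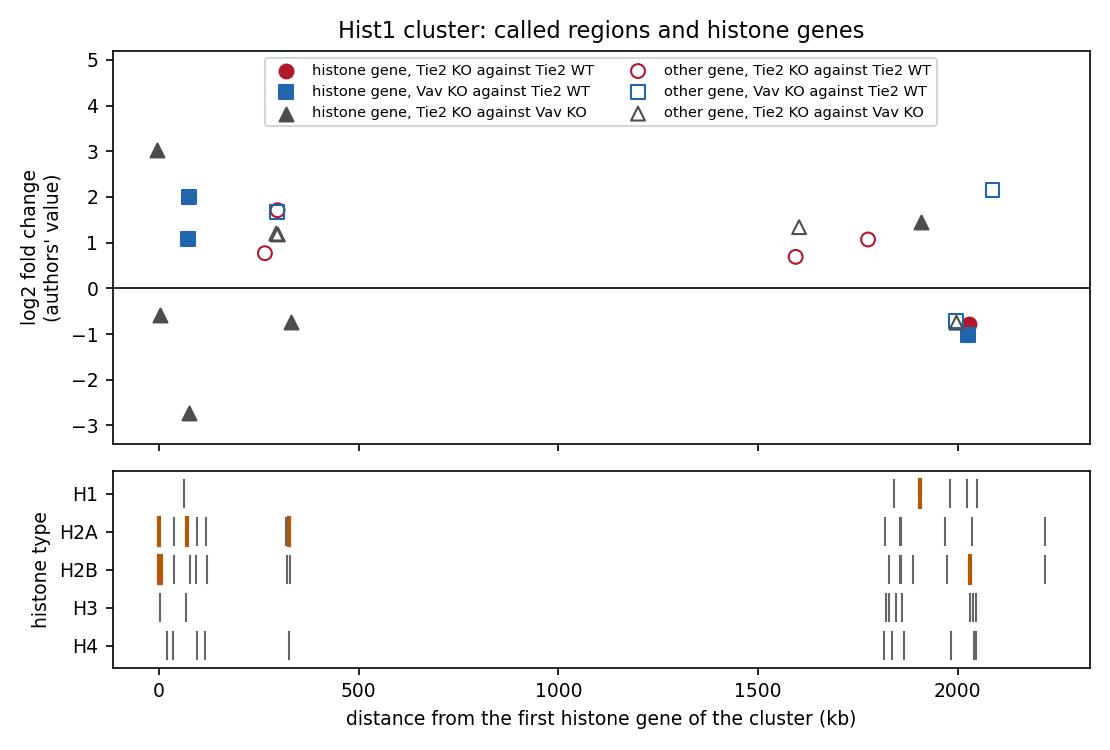
Top, log2 fold change in the authors' deposited table (y axis) of called regions in and beside the Hist1 cluster by distance in kb from its first histone gene (x axis), with filled symbols for regions paired with histone genes and open symbols for other genes. Bottom, protein-coding histone genes by type, thick where near a called region; the rows of H3 and H4 hold no thick mark.

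Of the 10 head-to-head pairs of histone genes found in the reference promoters, all pair an H2A with an H2B gene of the Hist1 cluster, with 164 to 281 bp between starts. Genes with no reference promoter could not enter a pair. Among these are the H2B genes Hist2h2be, beside Hist2h2ac, and Hist1h2bc, beside Hist1h2ac. A called region reached the stretch between the starts in 0 of the 10 pairs, and 3 of the pairs hold a gene paired with a region. Of 62 protein-coding histone genes with a reference promoter, called regions of any list reached the promoters of 2, Hist3h2ba and Hist1h1e. The share of all promoters that a called region reached was not counted. Among the 15 regions, the nearest start in the promoter table was that of the gene paired with the region in 4. Shares over all regions and over other short stretches were not counted either, so these counts cannot be called low or high.

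The median log2 fold changes of histone regions lay beside those of all regions as follows, in the authors' deposited table. For Tie2 KO against Tie2 WT the single higher histone region had 1.29 against a median of 1.02 over all higher regions, and the 2 lower ones had a median of -0.71 against -0.86. In Vav KO against Tie2 WT the medians in the authors' deposited table were 1.54 over 2 higher histone regions against 1.35 over all, and -1.01 for the single lower one against -1.29. For Tie2 KO against Vav KO they were 1.27 over 4 higher histone regions against 1.16 over all, and -0.87 over 5 lower ones against -1.12 in the authors' deposited table. The adjusted p of histone regions ran from 2.26e-07 to 0.00324 in the authors' deposited table.

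Reference promoters of histone genes shared sequence features that the naming rule did not use. On the gene's strand, CCAAT stood in 51 of 62 histone promoters (82.3%), against 21.7% of 27025 promoters of the same length. It stood in all promoters of 6 H1, 18 H2A, 16 H2B and 10 H3 genes and in 1 of 12 H4 promoters. TATAAA stood in 48.4% of histone promoters and in 8.88% of all. TTTGCAT, part of the octamer, stood on the gene's strand in 37.5% of H2B promoters, in 0 of 18 H2A promoters and in 2.41% of all. With both strands searched, TTTGCAT stood in 38.9% of H2A promoters, against 4.59% of all. Promoters of head-to-head genes overlap, so 1 site can count for both partners. TTCGCGC stood on the gene's strand in 7 of 18 H2A promoters and in 0 of the other types, against 0.799% of all. GATTTC stood in 9.68% of histone promoters against 6.28% of all, and TTGGCGC in 0 of 62 against 1.36%. Although chosen as the core of an H4 site, GATTTC stood in 0 of 12 H4 promoters, also with both strands searched. Shares for both strands were 85.5% and 37.9% for CCAAT, and 56.5% and 14.2% for TATAAA, in histone and in all promoters.

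Histone genes near a called region and those near none were set side by side by the same measures, without a test. CCAAT stood in 9 of 10 promoters of histone genes near a region and in 42 of 52 of those near none, and TATAAA in 4 of 10 near a region and in 26 of 52 near none. Hist4h4, printed above, is the member with none of the 6 motifs. The median GC content was 43.8% near a region and 45.7% near none, against 52.7% for all promoters, and the number of CpG per promoter had a median of 11.5 (3 to 22) near a region and ran over 3 to 41 near none, against a median of 7.0 for all. The promoter most like that of Hist1h2ag among the other 61 histone promoters was that of Hist1h2an, at 67.1% identity, the highest value among the 10 members. Whether reads of the regions map to more than 1 histone gene copy was not tested.

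Genes that make, carry or replace these histones were counted against the 26.8% of all protein-coding genes that lay near a called region, without a test. Of 22 matched genes for the expression of histone genes, 3 did. Sympk, a scaffold of the machinery that cuts histone messages, lay near higher regions, which the authors' deposited table gives as 0.95 (log2) in Tie2 KO against Tie2 WT and as 1.43 and 2.05 in Tie2 KO against Vav KO. Slbp, the stem-loop binding protein gene, lay 1927 bp from a region higher in Vav KO than in Tie2 WT, at 1.52 in the authors' deposited table. Ccne2, a cyclin of S phase entry, had -1.89 in Vav KO against Tie2 WT and 1.63 in Tie2 KO against Vav KO in the authors' deposited table.

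Of 21 histone chaperone genes, 3 lay near a called region, against 26.8% of all protein-coding genes. Hira, a chaperone gene of the variant H3.3, lay 449 bp from a region that the authors' deposited table lists as lower in Tie2 KO against Tie2 WT (adjusted p 3.38e-05). Ubn2, a partner of Hira, had 0.98 in Vav KO against Tie2 WT in the authors' deposited table. The importin gene Ipo4 had 2.04 in Tie2 KO against Vav KO in the authors' deposited table.

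Of 20 matched replication-independent histone genes, 6 lay near a called region, a share close to the 26.8% of all protein-coding genes. H2afy2, a macroH2A gene, had regions over its start that were higher in Tie2 KO, at 1.05 against Tie2 WT and 1.22 against Vav KO, and an upstream region at -0.93 in Vav KO against Tie2 WT, in the authors' deposited table. H2afz, a gene of the variant H2A.Z, had 1.06 in Vav KO against Tie2 WT and -1.05 in Tie2 KO against Vav KO in the authors' deposited table. The linker genes H1f0 and H1fx had 1.34 and 0.75 in Tie2 KO against Vav KO, and H2afy3 had -0.69, in the authors' deposited table. H2afj was the other, described beside Hist4h4.

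Of 42 DNA replication and cell cycle genes, 10 lay near a called region, a share close to the 26.8% of all protein-coding genes. Between Tie2 KO and Vav KO, 7 (among them Cdk1, Rrm1, Pold1 and Aurkb) lay near lower regions and 0 near higher ones, against 6.35% and 11.1% of all protein-coding genes. The authors' deposited table gives log2 fold changes of -1.47 at Rrm1, a ribonucleotide reductase gene, -1.12 at the polymerase gene Pold1, -1.02 at Cdk1 and -0.96 at the kinase gene Aurkb. For Tie2 KO against Tie2 WT, Mki67, a marker of cycling cells, had 1.59, and Top2a and Mcm10 had -1.05 and -0.94, in the authors' deposited table. In Vav KO against Tie2 WT, the authors' deposited table gives 1.62 at Rrm1, 1.53 at Mki67 and -0.70 at Pola1.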

How the data were processed

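The 14 ATAC-seq samples are 5 Tie2 KO, 3 Vav KO, 3 Tie2 WT and 3 Vav WT, the last named in no list. Per the submitters' processing notes, the build was mm10, and the tools were MACS2 2.1.2, HOMER 4.10, SAMtools 1.3.1, Bowtie2, Picard and FastQC, with no role for each. The sources used here do not say how reads were shifted, deduplicated or scaled, or which test was run. Per the file headers, the authors deposited for every called region its log2 fold change, its adjusted p-value and, as other measures in bp, its width and its distance to a gene start. On the lists, absolute log2 fold changes began at 0.58 and adjusted p-values ended at 0.0479. Group abbreviations in the list names were read as Tie2 KO, Vav KO and Tie2 WT.

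Members were found by symbol, and 0 further lines were found by gene identifier. Identifiers were matched to RefSeq genes of GRCm38.p6 (10669 of 10679 lines), whose older names gave 70 histone genes. Of the 10 member genes, 8 have the same start and end in the lists and in RefSeq. A region covered a start where the lists place it over the start or around the gene. Counts of genes were set beside the share of 21900 protein-coding genes with no test, since no value per sample is given. The planned comparison of histone proteins was not made here. Promoters of all 10 members were matched and searched for the 6 motifs. Promoter identity came from global alignment (Biopython 1.88). Intervals are exact 95% binomial ones from SciPy 1.17.1 and cover counting error only. Overlap, strand and motif functions were tested on simulated data. Genes were named by a written rule: the 6 histone regions of largest fold change per list, histone genes of several comparisons, of clusters 2 to 4 or of type H1, and up to 4 genes per other gene list and direction, with Gm12260 and marker genes named after their values were seen. The members and lists were chosen with earlier results of these data known. Alternatives tried were stricter thresholds, gene starts only, regions paired with 1 gene, other units of counting, a stricter overlap and a search of both strands.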

Additional observations from a re-analysis of the deposited data

How the results depend on the processing

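Counts of histone genes near a called region are small, and several choices moved them by over 1.5 times. With regions over the gene start only, the count was 1 for higher regions of Tie2 KO against Tie2 WT and 0 in the other 5 lists. With regions paired with exactly 1 gene, Tie2 KO against Tie2 WT had 0 histone genes near higher and 1 near lower regions, and Tie2 KO against Vav KO had 3 near lower regions. With an absolute log2 fold change of 1 or more, the counts near lower regions were 0 in Tie2 KO against Tie2 WT and 2 in Tie2 KO against Vav KO. Counting regions in place of genes gave 1 higher in Tie2 KO against Tie2 WT and 2 higher in Vav KO against Tie2 WT. An adjusted p of 0.01 or lower changed no count of histone genes. Every member gene is protein-coding, so a limit to protein-coding genes could not change a count. The median log2 fold change was 2.00 with 1 value per gene for higher regions of Vav KO against Tie2 WT. With an absolute value of 1 or more it was 1.46 for higher and -2.12 for lower regions of Tie2 KO against Vav KO. Each median is taken within a list of 1 direction, so none could change sign. TTTGCAT stood in 22.6% of histone promoters with both strands searched, against 9.68% on the gene's strand. Within 500 bp of the start lay 3 of 15 histone regions, against 1 over it, and on both strands GATTTC stood in 16.1% and TTCGCGC in 17.7% of histone promoters, against 9.68% and 11.3% on the gene's strand. These shares lie within the exact 95% intervals of the reported ones. The remaining values moved by less than 1.5 times for counts and 0.1 (log2) for medians, or stayed within such intervals. No paired analysis was possible because the lists give called regions without sample values, and for the same reason no replicate could be left out. Depth is unknown.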

Other observations

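Other genes within the Hist1 cluster also lay near called regions, and of 19 regions between its first and last histone gene 11 were paired with other genes. Prss16, a serine protease gene of the thymus, lay near higher regions in all 3 comparisons. Its values in the authors' deposited table, in log2, were 1.71 in Tie2 KO against Tie2 WT, 1.67 in Vav KO against Tie2 WT, and 1.20 over the gene start and 1.18 upstream of it in Tie2 KO against Vav KO. Pom121l2 and Btn2a2 had 0.77 and 1.07 in Tie2 KO against Tie2 WT in the authors' deposited table. Slc17a2, a phosphate transporter gene, had 2.16 in Vav KO against Tie2 WT in the authors' deposited table. Hfe, a regulator of iron uptake, had -0.71 over its start in Vav KO against Tie2 WT and -0.75 upstream in Tie2 KO against Vav KO, in the authors' deposited table. Of the 50.3 kb between the first and last Hist2 genes, no called region of any list covered a part.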
